A study of Homo sapiens with 24 samples.

Results

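The post-squalene sterol synthesis enzymes turn the last acyclic intermediate of cholesterol synthesis into cholesterol. They were followed as 9 genes, LSS, CYP51A1, TM7SF2, MSMO1, NSDHL, HSD17B7, EBP, SC5D and DHCR7, found in the gene count table by symbol, with no use of their values. All 9 were present among the 14493 genes of the table. The libraries came from SKBR3 (labelled SKBr3), an established HER2-amplified breast cancer cell line, in 8 groups of 3 libraries. Cells received 250 nmol/L of ND-646, an inhibitor of acetyl-CoA carboxylase, or 250 nmol/L of TVB-3166, an inhibitor of fatty acid synthase. Acetyl-CoA carboxylase and fatty acid synthase carry out successive steps of fatty acid synthesis, and the state the drugs induce is called fatty acid synthesis therapy-induced senescence (FASTIS). The other inducers of therapy-induced senescence (TIS) were 10 µmol/L of bleomycin, which breaks DNA, 10 nmol/L of doxorubicin, a topoisomerase II poison, 500 nmol/L of alisertib, an Aurora A kinase inhibitor, and 1 µmol/L of palbociclib, a CDK4/6 inhibitor. Every drug was refreshed on day 3 (a refeed in the labels) and cells were collected on day 7. Untreated cells were collected on day 0, when proliferative, and on day 7, and their labels name no refeed. All groups shared the same cell line, so the data describe a single line, and the labels do not say whether the 3 libraries of a group came from separate cultures; p-values therefore measure the spread between these libraries, which may be technical.

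In this pathway squalene epoxidase hands 2,3-oxidosqualene to lanosterol synthase (LSS), which folds it into lanosterol, the first sterol. CYP51A1 then removes a methyl group, TM7SF2 reduces the double bond this leaves, and MSMO1, NSDHL and HSD17B7 act in turn to strip a further pair of methyl groups. EBP moves a ring double bond, SC5D adds another and DHCR7 reduces 7-dehydrocholesterol to cholesterol. Most genes of the pathway are transcribed under sterol regulatory element-binding protein 2 (SREBP-2), which SCAP carries out of the endoplasmic reticulum when membrane sterol is low and INSIG proteins hold there when it is high.

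Library totals ran from 29405121 to 44316330 counts, and the 9 genes had from 138 (HSD17B7) to 21359 (CYP51A1) counts in a library, so HSD17B7 rests on the fewest counts. As in any bulk library, a change in fewer cells and a smaller change in every cell cannot be told apart. The 6 luminal epithelial markers measured summed to between 12190 and 21940 CPM (counts scaled to each library's effective size) in every library. Of 10 markers of other cell types 4 were measured, and VWF, the endothelial one, did not exceed 1.48 CPM. Their sum was at most 20.5 CPM on day 0, 54.6 to 67.0 under ND-646, 37.2 to 42.8 under TVB-3166 and 45.6 to 74.0 under bleomycin, with CD68, a lysosomal protein of macrophages and other cells, reaching 56.4 CPM and COL1A1 and ACTA2 up to 15.2 and 11.6 CPM. Summed proliferation markers ran from 2232 to 2427 CPM on day 0, from 361 to 469 under ND-646, from 742 to 945 under TVB-3166 and from 522 to 1842 under the other drugs. The part of these shifts in the results below was not tested.

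In proliferative untreated cells the enzymes differed widely in level. Per kilobase of the canonical transcript, CYP51A1 was highest at 94.2 CPM per kb, followed by DHCR7 at 86.4 and EBP at 68.5 CPM per kb. MSMO1 stood at 34.6, NSDHL at 23.7, TM7SF2 at 21.8 and LSS at 14.3 CPM per kb. SC5D at 4.78 and HSD17B7 at 4.26 CPM per kb were lowest. With all annotated exons merged as the length, EBP at 43.6 CPM per kb lay above DHCR7 at 33.0 and the other 7 kept their places.

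On GRCh37, the build to which reads were aligned, the genes lie apart on 6 chromosomes, 2 of them on X. LSS is at chr21:47608055-47648738 on the minus strand, CYP51A1 at chr7:91714301-91764117 on the minus strand and MSMO1 at chr4:166248819-166264316 on the plus strand. NSDHL is at chrX:151999511-152038273 and EBP at chrX:48380187-48387104, both on the plus strand. TM7SF2 (chr11:64879317-64883856), SC5D (chr11:121163390-121184119) and DHCR7 (chr11:71139239-71163914, minus strand) share chromosome 11 but not a neighbourhood, and HSD17B7 is at chr1:162760492-162782613. Another gene model shares exon bases, or a close copy exists, in 4 cases. HSD17B7 has a close copy, the pseudogene HSD17B7P2 on chromosome 10, which had 11 to 100 counts a library against 138 to 703 for HSD17B7, so HSD17B7 values are uncertain by the reads the copy may hold or receive. Longer models on the same strand share exon bases with CYP51A1 and EBP, and antisense transcripts share up to 448 exon bases with LSS. These models were not found by name among the counted genes, whereas HSD17B7P2 was. Whether counting used strand is not given in the sources used here.

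The bases before the transcription start are shown for the gene that moved most, MSMO1, for LSS at the head of the pathway, and for NSDHL and EBP, which did not pass the test of a rise under any drug. Each line gives the 250 bases upstream, 5′ to 3′ in the direction of transcription, from RefSeq on GRCh38.p14: MSMO1 at chr4:165327419-165327668 (plus strand), LSS at chr21:46228775-46229024 (minus strand), NSDHL at chrX:152830813-152831062 (plus strand) and EBP at chrX:48521558-48521807 (plus strand). Capitals mark the CCAAT box, searched as CCAAT on both strands, so that ATTGG is its reverse.
MSMO1: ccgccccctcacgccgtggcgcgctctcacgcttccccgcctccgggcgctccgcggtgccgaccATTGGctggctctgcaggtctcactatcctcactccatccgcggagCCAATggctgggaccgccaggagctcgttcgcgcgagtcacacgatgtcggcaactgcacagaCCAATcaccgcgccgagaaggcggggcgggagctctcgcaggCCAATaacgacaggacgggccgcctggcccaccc
LSS: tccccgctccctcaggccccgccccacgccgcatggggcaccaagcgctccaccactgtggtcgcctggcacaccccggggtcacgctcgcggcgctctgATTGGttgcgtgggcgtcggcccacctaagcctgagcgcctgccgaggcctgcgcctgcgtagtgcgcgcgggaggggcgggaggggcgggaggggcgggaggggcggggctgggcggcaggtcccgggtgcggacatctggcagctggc
NSDHL: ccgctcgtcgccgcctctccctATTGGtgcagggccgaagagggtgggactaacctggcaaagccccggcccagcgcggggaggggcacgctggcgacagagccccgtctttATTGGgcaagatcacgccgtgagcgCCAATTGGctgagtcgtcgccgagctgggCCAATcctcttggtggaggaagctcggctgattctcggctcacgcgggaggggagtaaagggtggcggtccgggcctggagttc
EBP: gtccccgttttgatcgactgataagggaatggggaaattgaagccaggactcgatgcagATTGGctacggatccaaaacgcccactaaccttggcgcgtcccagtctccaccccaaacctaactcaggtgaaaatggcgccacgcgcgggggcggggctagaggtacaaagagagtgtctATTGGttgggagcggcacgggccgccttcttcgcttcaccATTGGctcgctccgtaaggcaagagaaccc
The CCAAT box, which the factor NF-Y binds, occurred 4 times before MSMO1, 1 time before LSS, 5 times before NSDHL, where 2 matches overlap, and 3 times before EBP. It lay in 9 of the 11 RefSeq promoters of the 9 genes (SC5D and DHCR7 have a pair each) and in 32.0% of all 35116 promoters of that length. The GC box, searched as GGGCGG on both strands, was in 9 of the 11 against 42.6%, and the E-box CACGTG in the 2 overlapping windows of SC5D, against 6.35%. The sterol regulatory element was searched as TCACNCCAC, the form in the LDL receptor promoter, and was in none of the 11 against 0.883% of all, which says only that these letters are not in this window. NSDHL and EBP thus had the CCAAT letters as MSMO1 and LSS did, and the GC box was in the MSMO1, LSS and EBP windows and not in that of NSDHL.

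MSMO1, the C4 methylsterol oxidase, was the member that differed most between groups. Its 3 libraries on day 0 were at 76.2, 67.5 and 87.4 CPM, those under ND-646 at 629, 286 and 444 CPM and those under TVB-3166 at 667, 385 and 494 CPM. All 6 libraries of cells with blocked fatty acid synthesis lay above the other 18, of which the highest, under alisertib, was at 211 CPM. Against day 0 MSMO1 rose 5.84-fold under ND-646 (log2 fold change 2.55 ± 0.27 SE, edgeR adjusted p = 0.000207) and 6.72-fold under TVB-3166 (2.75 ± 0.19 SE, adjusted p = 1.06e-06).

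LSS was at 68.7, 73.4 and 68.0 CPM on day 0, at 242, 145 and 253 CPM under ND-646 and at 314, 193 and 279 CPM under TVB-3166. Every library under either inhibitor was above every day 0 library, though the lowest, ND-646 replicate 2, lay inside the alisertib range of 140 to 163 CPM. CYP51A1, the lanosterol demethylase, was at 285, 273 and 334 CPM on day 0, at 890, 461 and 609 CPM under ND-646 and at 714, 478 and 569 CPM under TVB-3166. It was the only other member whose 6 libraries under these inhibitors all exceeded the other 18, which reached 389 CPM. The per-library plot shows both the height and the wide spread of the inhibitor groups.

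**Figure D1:**
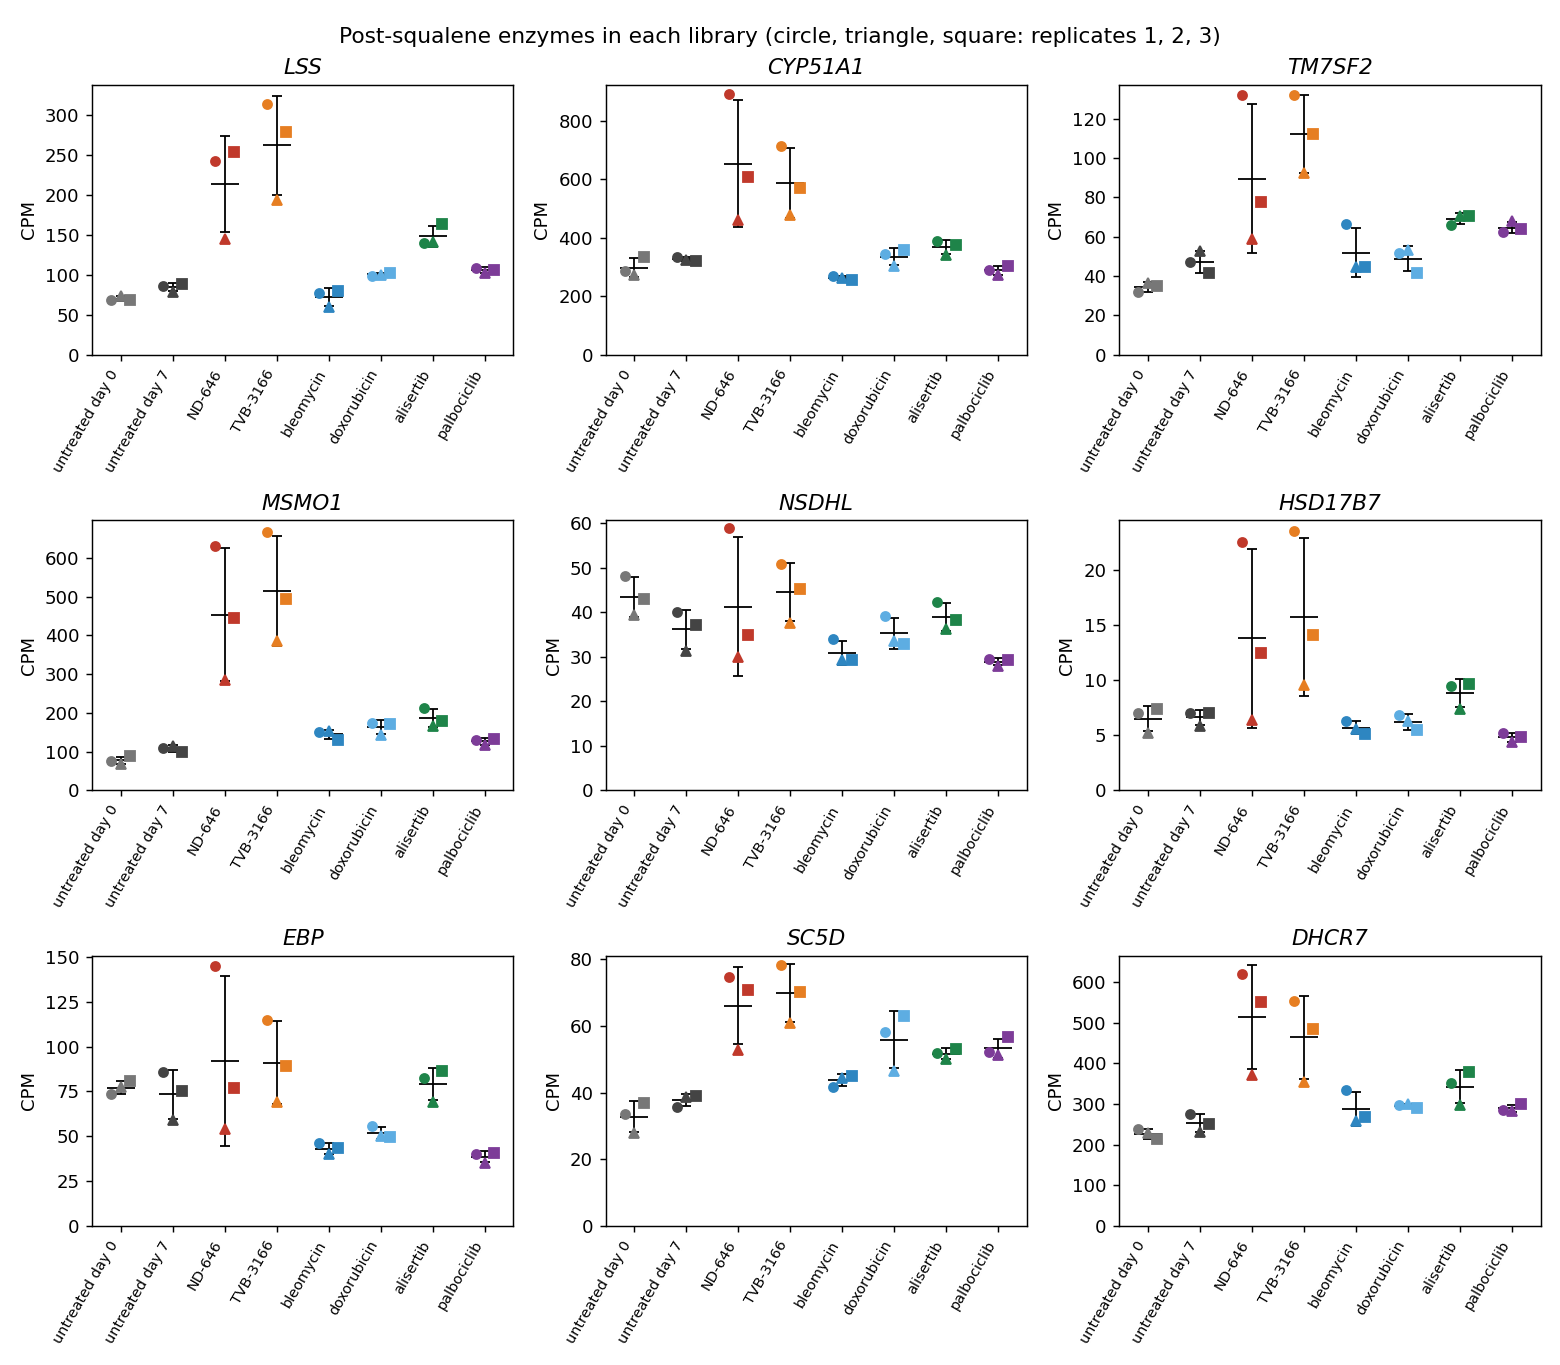
Level of each of the 9 enzymes in CPM (vertical axes from 0) in the 8 groups, with each library as a point and the mean ± SD (n = 3) as a bar. The 6 ND-646 and TVB-3166 libraries stand above the other 18 for CYP51A1 and MSMO1, and the triangle, replicate 2, is lowest for all 9 genes in both groups.

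The ND-646 and TVB-3166 groups were wider than the rest for these genes. The median coefficient of variation over the 9 was 37.7% under ND-646 and 22.0% under TVB-3166, against 5.20% to 10.3% in the other 6 groups. Over all genes it was 20.2% and 9.32%, so the wider spread of TVB-3166 was seen in the enzymes and not in the typical gene. Replicate 2 was lowest for all 9 genes in both groups, and replicate 1 was highest for 8 of the 9 under ND-646 and for all 9 under TVB-3166. The scaling factor (TMM) of ND-646 replicate 1 was 0.791, against 0.952 for replicate 2 and 0.938 for replicate 3. Replicate 2 was also lowest for 8 of 9 under palbociclib and 7 of 9 under alisertib, with a far smaller gap. Results that depend on these libraries are given with and without them.

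Against proliferative untreated cells, which asks what the arrested state differs in from growing cells, 6 of the 9 enzymes were higher under ND-646 (edgeR quasi-likelihood test, Benjamini-Hochberg adjusted p under 0.05 over all genes), where 19.1% of all genes tested were higher. Under TVB-3166, 7 of 9 were higher, where 27.4% of all genes were. The median log2 fold change of the 9 was 1.13 under ND-646 and 1.10 under TVB-3166, against 0.02 and -0.01 over all genes. LSS rose 3.03-fold (1.60 ± 0.21 SE on the log2 scale, adjusted p = 0.000617) and 3.76-fold (1.91 ± 0.16, adjusted p = 3.37e-06). TM7SF2, the sterol C14 reductase, rose 2.58-fold (1.37 ± 0.27) and 3.27-fold (1.71 ± 0.13). CYP51A1 rose 2.18-fold (1.13 ± 0.24) and 1.98-fold (0.99 ± 0.15).

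The last enzymes of the pathway rose as well. SC5D, the C5 desaturase, went from 33.5, 27.8 and 36.97 CPM on day 0 to 74.6, 52.9 and 70.9 CPM under ND-646 and 78.3, 60.9 and 70.2 CPM under TVB-3166, with no overlap, a 2.01-fold and 2.14-fold rise. DHCR7 was at 238, 229 and 214 CPM on day 0, at 621, 372 and 551 CPM under ND-646 and at 555, 353 and 485 CPM under TVB-3166. Its rise was 2.25-fold (1.17 ± 0.20 SE, adjusted p = 0.00222) and 2.05-fold (1.04 ± 0.15 SE, adjusted p = 0.000143). HSD17B7, the 3-ketosteroid reductase of this step, had the widest libraries: 22.5, 6.40 and 12.5 CPM under ND-646 and 23.5, 9.55 and 14.1 CPM under TVB-3166, against 6.99, 5.18 and 7.34 CPM on day 0. It rose 2.42-fold under TVB-3166 (adjusted p = 0.00253), and under ND-646 its log2 fold change of 1.07 ± 0.39 SE had an adjusted p of 0.0600, which became 0.00859 without ND-646 replicate 2, the library inside the day 0 range. With every library kept, HSD17B7 under ND-646 passed with DESeq2 (adjusted p = 0.0210) and with the replicate number as a block (adjusted p = 0.0288). It also passed in the edgeR fit of all 24 libraries (adjusted p = 0.00563).

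NSDHL and EBP, the 2 X-linked members, did not pass the test. NSDHL, the C4 decarboxylase that acts directly after MSMO1, was at 48.1, 39.2 and 42.9 CPM on day 0, at 58.9, 29.8 and 34.9 CPM under ND-646 and at 50.8, 37.6 and 45.1 CPM under TVB-3166. The groups overlapped fully, and the 95% interval of the log2 fold change was -0.64 to 0.46 under ND-646 and -0.23 to 0.31 under TVB-3166. Both intervals exclude the 2-fold rise of SC5D, DHCR7 and CYP51A1. Without ND-646 replicate 1, NSDHL was lower than on day 0 (-0.43 on the log2 scale, adjusted p = 0.0192). EBP, the sterol isomerase, was at 73.3, 77.2 and 80.7 CPM on day 0, at 145, 53.8 and 77.1 CPM under ND-646 and at 115, 69.2 and 89.0 CPM under TVB-3166. Its log2 fold change was 0.24 (95% interval -0.45 to 0.94) under ND-646 and 0.25 (-0.09 to 0.58) under TVB-3166, and without TVB-3166 replicate 2 the latter was 0.41 with an adjusted p of 0.0250.

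Because enzymes of the pathway moved unequally, ratios between them within a library changed, whatever the scaling of libraries. The ratio of MSMO1 to NSDHL counts was 1.58 to 2.04 on day 0, 2.69 to 3.69 on day 7 without drug, 4.19 to 5.24 under the 4 other inducers, 9.58 to 12.7 under ND-646 and 10.3 to 13.1 under TVB-3166. These ranges did not overlap except between the last pair. The ratio of DHCR7 to EBP was 2.65 to 3.25 on day 0 and its mean was highest under palbociclib, at 7.12 to 8.06. The ranges of bleomycin, 6.16 to 7.29, and ND-646, 4.28 to 7.15, overlapped that of palbociclib, and TVB-3166 stood at 4.82 to 5.45.

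The other inducers of TIS also raised part of the pathway, by less. Alisertib raised 6 of the 9 enzymes against day 0, where 17.7% of all genes tested were higher. MSMO1 was at 211, 167 and 180 CPM and rose 2.40-fold, LSS rose 2.11-fold (1.08 ± 0.09 SE) and TM7SF2 by 1.00 ± 0.09 SE on the log2 scale. SC5D rose 1.57-fold, DHCR7 1.503-fold and CYP51A1 1.24-fold. The CYP51A1 call was lost without any 1 of the 3 alisertib libraries or without day 0 replicate 2 (adjusted p 0.0541 to 0.120) and in the fit of all 24 libraries (adjusted p = 0.157). HSD17B7 had an adjusted p of 0.0792, and NSDHL and EBP log2 fold changes of -0.16 and 0.04 with no call.

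Bleomycin, doxorubicin and palbociclib split the pathway. Bleomycin raised 4 of 9 and lowered 2, where 24.1% of all genes were higher and 25.3% lower. Doxorubicin raised 5 and lowered 2, where 23.7% were higher and 24.8% lower, and palbociclib raised 5 and lowered 2, where 26.0% were higher and 27.2% lower. The shares of members that rose and fell were thus nearer to those of all genes than under the fatty acid synthesis inhibitors. MSMO1 rose in all 3, by 1.88-fold, 2.13-fold and 1.64-fold, and so did TM7SF2, SC5D and DHCR7. In the fit of all 24 libraries DHCR7 passed under none of the 3 (adjusted p = 0.0772, 0.0537 and 0.0699), and TM7SF2 (adjusted p = 0.0512) and NSDHL (adjusted p = 0.159) did not pass under doxorubicin. LSS rose 1.45-fold under doxorubicin and 1.51-fold under palbociclib, while under bleomycin its libraries at 76.6, 59.6 and 79.9 CPM spanned those of day 0.

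EBP and NSDHL were the members that fell. EBP was at 46.0, 39.8 and 43.3 CPM under bleomycin, 55.6, 49.9 and 49.3 CPM under doxorubicin and 40.0, 35.1 and 40.7 CPM under palbociclib. All 9 libraries lay under the lowest on day 0, and EBP decreased by 0.84, by 0.57 and by 1.00 on the log2 scale. NSDHL dropped by 0.49 under bleomycin, by 0.29 under doxorubicin and by 0.59 under palbociclib on that scale. The doxorubicin value for NSDHL sat at the threshold (adjusted p = 0.0495). It missed it with size factors in place of TMM (adjusted p = 0.05002), and without doxorubicin replicate 2 or 3 or day 0 replicate 1 or 3 (adjusted p 0.0775 to 0.166). The DHCR7 rise under bleomycin, 1.27-fold, was lost without bleomycin replicate 1 or 3 or without any 1 of the day 0 libraries (adjusted p up to 0.156), and that of SC5D, 1.34-fold, without bleomycin replicate 3 or day 0 replicate 2 (adjusted p 0.0652 and 0.0780). CYP51A1 and HSD17B7 passed in neither direction under these 3 drugs, except that HSD17B7 under palbociclib, at -0.44, had an adjusted p of 0.0324 without day 0 replicate 2.

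**Figure D2:**
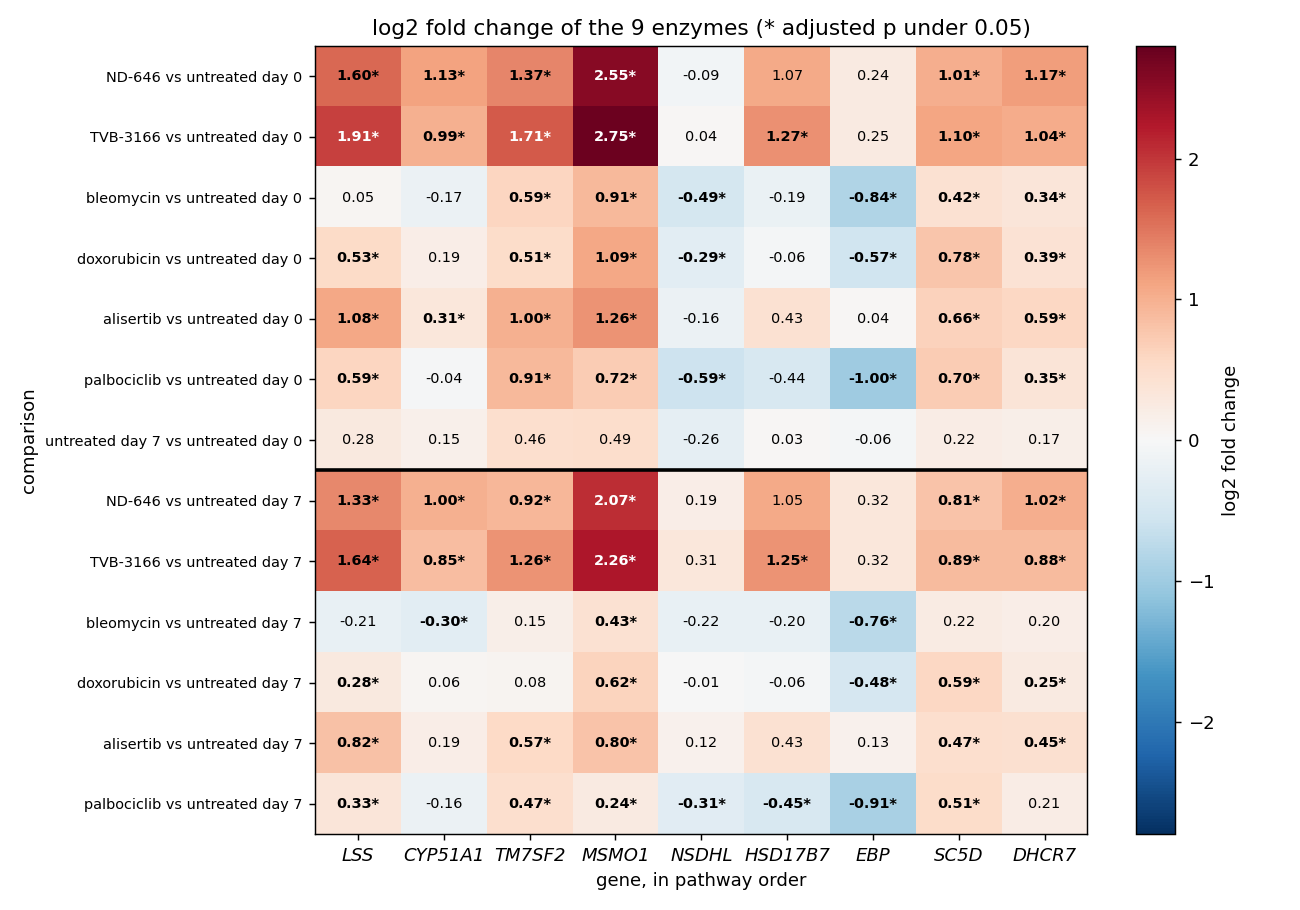
Log2 fold change (colour and printed value) of each enzyme, in pathway order on the horizontal axis, in 13 comparisons with untreated cells of day 0 (above the line) or day 7 (under it), with an asterisk where the adjusted p was under 0.05. MSMO1 reaches 2.55 and 2.75 under ND-646 and TVB-3166, while EBP and NSDHL are the columns with called decreases under several drugs.

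Culture to day 7 without drug gave smaller differences. None of the 9 enzymes passed the edgeR test between untreated cells of day 7 and day 0, where 0.389% of all genes were higher. At an unadjusted p under 0.05 there were 3, and DESeq2 called 2, MSMO1 (0.48 on the log2 scale) and TM7SF2 (0.45). MSMO1 was at 109, 115 and 99.6 CPM on day 7, above all 3 libraries of day 0, with a log2 fold change of 0.49 ± 0.11 SE (adjusted p = 0.0680). TM7SF2, at 47.2, 52.5 and 41.5 CPM against 31.9, 36.5 and 34.9 CPM, did not overlap either (adjusted p = 0.0789).

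Day 7 untreated cells are the reference matched in time, and the comparisons with them share the drug libraries with those above. The labels name a refeed on day 3 for every drug group and none for these cells. A difference in feeding, if there was one, cannot be told apart from the drug. Against them 6 of 9 enzymes were higher under ND-646, where 17.2% of all genes were, and 7 of 9 under TVB-3166, where 25.4% were. MSMO1 rose 4.19-fold (2.07 ± 0.26 SE) and 4.80-fold (2.26 ± 0.17 SE), and LSS 2.52-fold and 3.12-fold. HSD17B7 rose 2.39-fold under TVB-3166, and under ND-646 had 1.05 ± 0.39 SE with an adjusted p of 0.0681 (0.00901 without ND-646 replicate 2). With every library kept, the latter passed with DESeq2 (adjusted p = 0.0234) and in the edgeR fit of all 24 libraries (adjusted p = 0.00708). The TM7SF2 rise under ND-646, 0.92 ± 0.27 SE, was lost without any 1 of the day 7 libraries (adjusted p 0.0723 to 0.118), and that of CYP51A1, 1.00 ± 0.22 SE, without day 7 replicate 3 (adjusted p = 0.0508). With libraries scaled by total counts alone, the TM7SF2 rise also missed the threshold (0.67, adjusted p = 0.0524). EBP and NSDHL under TVB-3166 stood at 0.32 and 0.31 with adjusted p of 0.143 and 0.0578. Without TVB-3166 replicate 2 both passed, at 0.48 and 0.42 with adjusted p of 0.0258 and 0.0182, and NSDHL also passed without day 7 replicate 1 (0.38, adjusted p = 0.0324). With every library kept, NSDHL passed with DESeq2 (adjusted p = 0.0464). Both passed in edgeR with the replicate number as a block (adjusted p = 0.00291 for EBP and 0.00443 for NSDHL), though the numbers were not taken to pair these libraries.

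Under alisertib 5 of 9 enzymes were higher than on day 7, where 9.55% of all genes were, with LSS at 1.77-fold, MSMO1 at 1.74-fold and TM7SF2 at 1.48-fold. With the replicate number as a block, CYP51A1 (0.19, adjusted p = 0.0405) and HSD17B7 (0.43, adjusted p = 0.0206) passed as well, while calls over all genes went from 1318 higher and 1309 lower to 2116 and 2025. DHCR7, at 1.37-fold, was lost without alisertib replicate 3 (adjusted p = 0.0574). Doxorubicin raised 4, where 21.9% were higher, and lowered EBP, where 21.5% were lower. MSMO1 rose 1.54-fold, SC5D 1.51-fold, LSS 1.21-fold and DHCR7 1.19-fold, and the LSS call was lost without day 7 replicate 2 (adjusted p = 0.0610). The DHCR7 call was lost without any 1 of the 3 doxorubicin libraries or without day 7 replicate 2 or 3 (adjusted p 0.0584 to 0.140). With all 24 libraries in the fit, LSS, EBP and DHCR7 did not pass under doxorubicin (adjusted p 0.0978 to 0.280), nor TM7SF2 and DHCR7 under alisertib (adjusted p = 0.103 and 0.0965).

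Bleomycin left 1 enzyme higher than on day 7, MSMO1 at 1.35-fold, where 22.4% of all genes were higher, and 2 lower, EBP at -0.76 and CYP51A1 at -0.30 on the log2 scale, where 23.2% were lower. In the fit of all 24 libraries MSMO1 (adjusted p = 0.0934) and CYP51A1 (adjusted p = 0.126) did not pass. Palbociclib left 4 higher, where 22.0% were, and 3 lower, where 22.9% were. SC5D rose 1.42-fold, TM7SF2 1.38-fold and LSS 1.26-fold, while EBP decreased by 0.91 on the log2 scale, with libraries at 35.1 to 40.7 CPM against 59.0 to 85.9 CPM. In the fit of all 24 libraries LSS (adjusted p = 0.134) and TM7SF2 (adjusted p = 0.0847) no longer passed under palbociclib, nor did MSMO1, NSDHL and HSD17B7 (adjusted p 0.163 to 0.391). NSDHL (-0.31) was lost without any 1 of the palbociclib libraries or day 7 replicate 1 or 3 (adjusted p 0.0594 to 0.110), and HSD17B7 (-0.45) was lost in the same 5 fits (adjusted p 0.0528 to 0.125). MSMO1 (0.24) was lost without palbociclib replicate 1 or 3 or day 7 replicate 1 or 3 (adjusted p 0.0636 to 0.146).

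Whether the fatty acid synthesis inhibitors differed from the other inducers was tested directly, as the mean of ND-646 and TVB-3166 minus the mean of the other 4 drugs over 18 libraries of day 7. All 9 enzymes were higher under the fatty acid synthesis inhibitors, where 26.1% of all genes tested were, with a median log2 difference of 0.85 against 0.02 over all genes. MSMO1 differed 3.18-fold (95% interval 1.39 to 1.94 on the log2 scale), HSD17B7 2.38-fold (0.83 to 1.68), LSS 2.31-fold (0.98 to 1.44) and CYP51A1 2.01-fold (0.78 to 1.23). EBP differed 1.81-fold (0.54 to 1.17), TM7SF2 1.74-fold, DHCR7 1.62-fold and SC5D 1.34-fold (0.26 to 0.59). NSDHL differed least, 1.30-fold (0.14 to 0.62, adjusted p = 0.0108), and missed the threshold with libraries scaled by total counts alone (0.21, adjusted p = 0.0628). EBP and NSDHL were lower than on day 0 under 3 of the other 4 drugs and were not called above it under the inhibitors. Proliferation markers differed in the same contrast, with 10 of 10 lower under the fatty acid synthesis inhibitors, where 3370 of all 14052 genes tested were lower. Their part in the differences was not tested.

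The carboxylase and the synthase inhibitor were then set against each other at the shared dose of 250 nmol/L. None of the 9 enzymes differed in the edgeR test, none had an unadjusted p under 0.05 and DESeq2 called none, where 0.520% of all genes tested were higher under TVB-3166. The intervals were wide, because the ND-646 libraries were. SC5D, the tightest, differed by 0.08 (95% interval -0.30 to 0.47) and HSD17B7, the widest, by 0.20 (-0.88 to 1.28). MSMO1 differed by 0.19 (-0.51 to 0.89) and LSS by 0.30 (-0.28 to 0.89), so log2 differences as large as 0.89 remained inside the interval for either gene. With the replicate number as a block none of the 9 passed, although calls over all genes went from 71 higher and 27 lower to 222 and 88. Without ND-646 replicate 1, TM7SF2 (0.72, adjusted p = 0.0159) and NSDHL (0.46, adjusted p = 0.0458) were higher under TVB-3166.

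**Figure D3:**
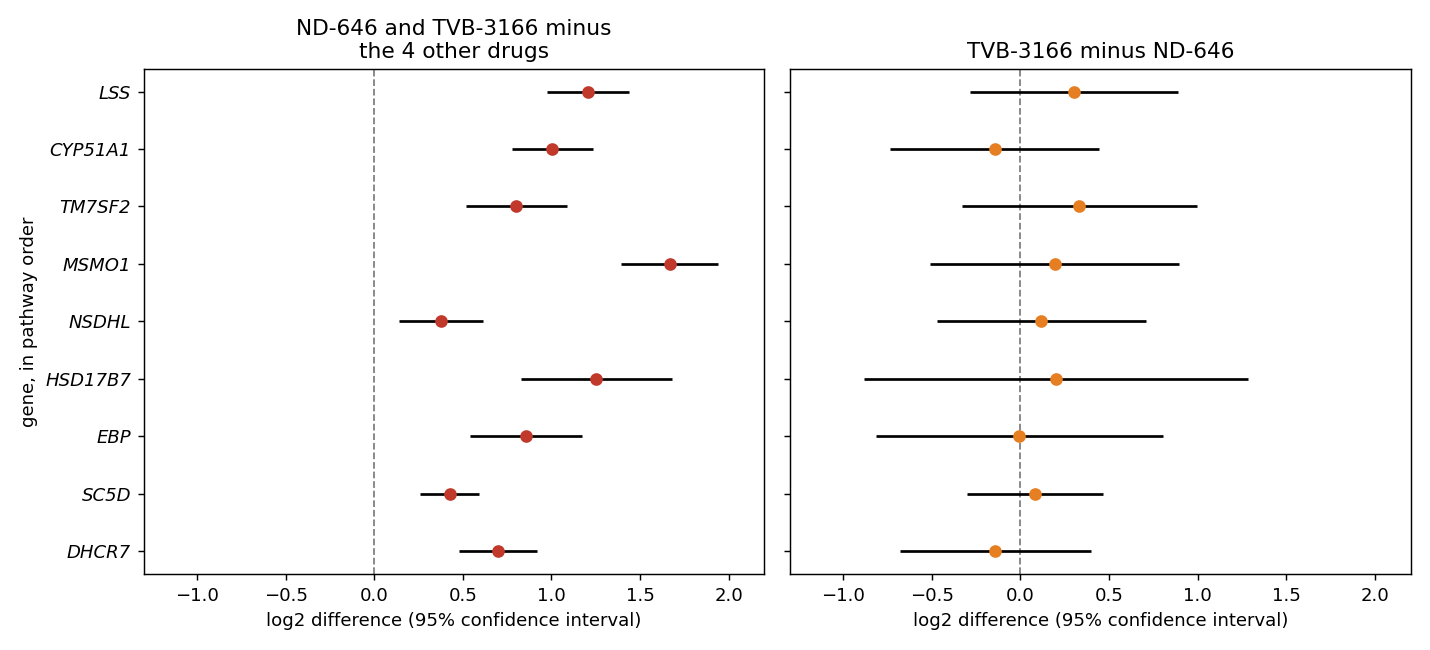
Log2 difference with 95% confidence interval (lines) of each enzyme, in pathway order, between the mean of ND-646 and TVB-3166 and the mean of the 4 other drugs (left, 18 libraries), and between TVB-3166 and ND-646 (right, 6 libraries). On the left all 9 intervals lie above 0, from NSDHL at 0.38 to MSMO1 at 1.67, and on the right all 9 span 0.

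Seen across all 8 groups, every enzyme had its highest mean under ND-646 or TVB-3166. The ND-646 and TVB-3166 libraries overlapped each other for all 9 genes. The step from these 2 groups down to the next, alisertib, was free of overlap for CYP51A1 and MSMO1. The ratio of the highest to the lowest group mean was 6.69 for MSMO1, 3.74 for LSS, 3.27 for HSD17B7 and 3.26 for TM7SF2. CYP51A1 (2.49), EBP (2.38), DHCR7 (2.27) and SC5D (2.13) formed a middle range, and NSDHL was flattest at 1.54. The lowest mean was on day 0 for LSS, TM7SF2, MSMO1, SC5D and DHCR7, under palbociclib for NSDHL, HSD17B7 and EBP, and under bleomycin for CYP51A1. For MSMO1 the untreated groups did not overlap with each other or with any drug group. For NSDHL no neighbouring groups in the order were free of overlap.

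Over the 24 libraries the enzymes rose and fell together to different degrees. The 36 pairs had a median Pearson r of 0.82 in log2 CPM, which describes libraries that share groups and depth. The closest pair was MSMO1 and DHCR7 at 0.94, followed by LSS and DHCR7 at 0.92. NSDHL and SC5D were the least alike at 0.18, and EBP and SC5D followed at 0.21. The 2 X-linked members were alike with each other, NSDHL and EBP at 0.91, and HSD17B7 was near to both, at 0.80 with NSDHL and 0.84 with EBP. Against the mean of the other 8, CYP51A1 (0.96) and HSD17B7 (0.94) lay nearest and NSDHL (0.58) and EBP (0.66) farthest.

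**Figure D4:**
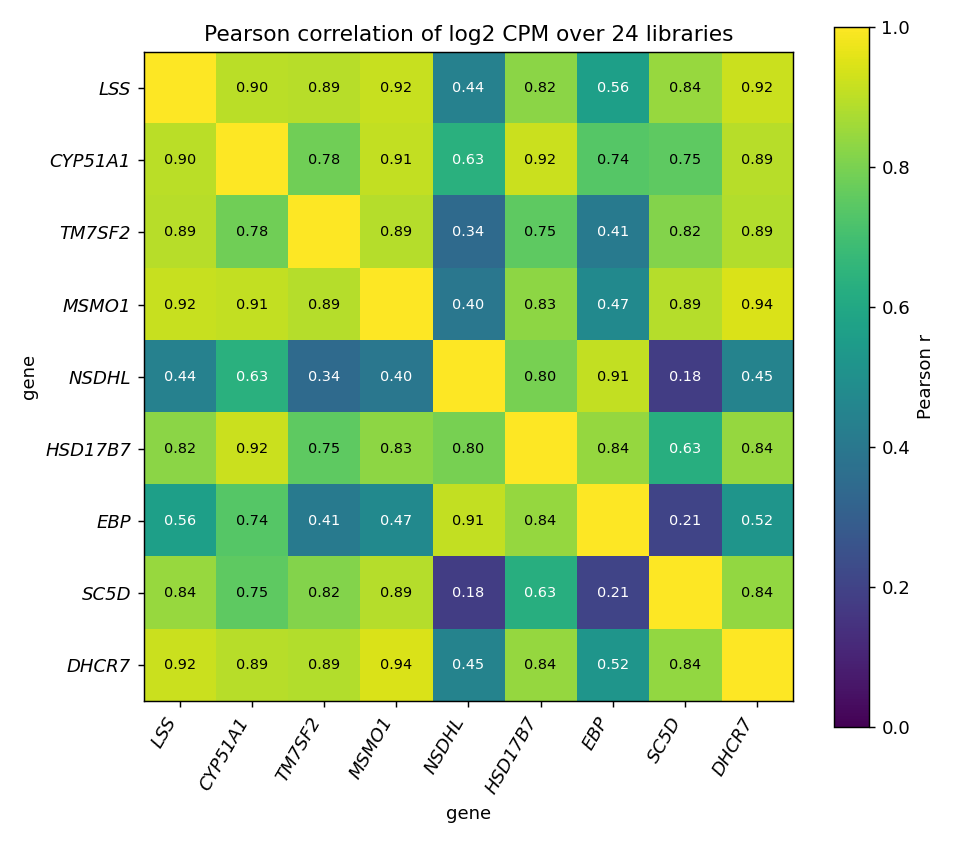
Pearson correlation (colour and printed value) of log2 CPM between each pair of the 9 enzymes over the 24 libraries. LSS, CYP51A1, MSMO1, HSD17B7 and DHCR7 are at 0.82 or above with each other, and TM7SF2 is at 0.75 to 0.89 with them. NSDHL and EBP, at 0.91 with each other, hold the low values with most other members, down to 0.18 between NSDHL and SC5D.

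Among genes outside the 9, those whose log2 CPM followed the mean of the scaled members most closely over 24 libraries were MVD (r = 0.98), SQLE (0.97), FDPS (0.96), FDFT1 (0.94) and PRR15 (0.94). MVD, FDPS, FDFT1 and SQLE are enzymes of the mevalonate and squalene steps just upstream. FDPS, which makes farnesyl diphosphate, averaged 166 CPM on day 0, 805 under ND-646 and 791 under TVB-3166. PRR15 encodes a small proline-rich protein and averaged 62.0, 166 and 169 CPM in the same groups.

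The upstream enzymes from ACAT2 to SQLE gave the pathway's other arm. Of these 10 genes, 7 were higher than on day 0 under ND-646 and 7 under TVB-3166, with medians of 1.35 and 1.64 on the log2 scale, where 19.1% and 27.4% of all genes were higher. SQLE, which hands its product to LSS, stood at 1.47 and 1.50. ACAT2, MVK and PMVK were the 3 with no call under either inhibitor. Alisertib raised 6 and lowered 1, doxorubicin raised 5 and lowered 3, bleomycin raised 1 and lowered 2 and palbociclib raised 1 and lowered 4, where 17.7%, 23.7%, 24.1% and 26.0% of all genes were higher and 19.6%, 24.8%, 25.3% and 27.2% lower in that order of drugs. In the contrast of the fatty acid synthesis inhibitors with the other 4 drugs all 10 were higher, where 26.1% of all genes were, with a median of 1.29.

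Genes that serve the same late steps without being in the set behaved otherwise. Of 9 measured, 4 were lower than on day 0 under ND-646, where 18.8% of all genes were, and under TVB-3166 5 were lower, where 27.7% were, and 1, ERG28, was higher (0.40). Of the same 9 genes 2 were lower under alisertib, 6 under bleomycin, 6 under doxorubicin and 7 under palbociclib. Of all genes 19.6%, 25.3%, 24.8% and 27.2% were lower in that order of drugs, so the alisertib count lay near its share. LBR, a nuclear membrane protein that shares the sterol reductase activity of TM7SF2, fell by 1.02 and by 1.11 on the log2 scale, while TM7SF2 rose, and LBR also fell by 1.33 under palbociclib and by 1.15 under bleomycin. PGRMC1, a haem-binding partner of cytochrome P450 enzymes such as CYP51A1, fell by 0.92 and by 0.93, and by 1.15 under bleomycin. Among 7 regulators of SREBP, 4 were higher under both inhibitors: INSIG1 (2.65 and 2.75), INSIG2 (0.86 and 0.74), SREBF1 (1.90 and 1.71) and SREBF2 (0.61 and 0.69). SCAP, at 0.02 and -0.16, and the proteases MBTPS1 and MBTPS2 had no call. Alisertib raised 4 of the 7, doxorubicin 3, palbociclib 3 and bleomycin 1. Of all genes 19.1% were higher under ND-646, 27.4% under TVB-3166 and 17.7%, 23.7%, 26.0% and 24.1% under these 4 drugs in that order. The same shares stand beside the counts that follow. Counts near them, such as 1 of 7 under bleomycin, do not set a list apart from all genes. Of 9 fatty acid synthesis genes 6 were higher and 1 lower under ND-646, and 8 were higher and 1 lower under TVB-3166, FASN itself by 1.96 and 1.85 and SCD, the stearoyl-CoA desaturase, by 2.72 and 2.79. The gene that was lower under both was ACACB, at -2.39 and -0.82. Alisertib raised all 9, doxorubicin 5, palbociclib 5 with 1 lower, and bleomycin 3 with 2 lower. Genes of cholesterol uptake and transport were higher for 5 of 6 under each inhibitor and under bleomycin, and for 4 of 6 under alisertib, doxorubicin and palbociclib. Those of storage and efflux were higher for 4 of 6 under ND-646, 3 under TVB-3166, 6 under bleomycin, 3 under doxorubicin, 2 under alisertib and 2 under palbociclib, where 1 was lower.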

How the data were processed

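RNA of 24 libraries of SKBR3 cells was sequenced (paired ends). The study's methods state alignment with HISAT2 to GRCh37, assembly with StringTie and DESeq2 for its own tests, and name a total RNA kit where the labels name an mRNA kit. The authors deposited whole-number read counts per gene for 14493 genes, none under 1 in any library. Counting settings and strand use are not given in the sources used here. Totals ran from 29405121 to 44316330, and precision was limited by the spread of 3 libraries.

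From these counts, edgeR 4.0.16 (limma 3.58.1, R 4.3.3) fitted the libraries of each comparison with filterByExpr, TMM factors and the quasi-likelihood test, with p-values adjusted over all genes by Benjamini-Hochberg at 0.05. Levels are TMM-scaled CPM, and correlations used log2 CPM with a prior count of 2. Of 15 comparisons, 7 were against day 0, 6 against day 7 and 2 between drugs. Scripts were tested on simulated data. The 9 members, all gene lists and the tests were chosen with earlier results of these data known, so no pattern here is independent evidence. Genes named were the 9 members, members of 4 lists (mevalonate arm, other late sterol genes, SREBP regulators, fatty acid synthesis) and the 5 genes most correlated with the members' mean; marker genes of other cell types and HSD17B7P2, a copy of a member, are named for checks. Some list genes are not reported here by name. Gene positions are from GENCODE on GRCh37, matched by HGNC number for all 9, and promoters from RefSeq on GRCh38.p14, matched for all 9. Alternatives were size factors (RLE), DESeq2 1.42.0, no filter, a minimum of 10 counts, all 24 libraries in a single fit, a replicate block, a rule of 2-fold with raw p under 0.05 and leaving out each library; total-count scaling was added after seeing the data.

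Replicate numbers in the labels were taken to pair libraries where all 3 same-numbered pairs correlated above 0.1 in their deviations from group means. That held for bleomycin (0.126 to 0.166), alisertib (0.112 to 0.227) and doxorubicin (0.101 to 0.209) against day 7 and for TVB-3166 against ND-646 (0.254 to 0.414), and the pairing there comes from the data alone. Within the contrast of the drug groups it held for some pairs of groups, such as TVB-3166 and bleomycin (0.131 to 0.334). It did not hold for others, such as ND-646 and doxorubicin (-0.155 to 0.403).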

Additional observations from a re-analysis of the deposited data

Results flagged for a closer look

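The effect of drug treatment on the 9 enzymes differed between the fatty acid synthesis inhibitors and the other 4 inducers by a test of the difference itself (edgeR, 18 libraries, adjusted over all genes). The log2 difference was 1.21 for LSS, 1.00 for CYP51A1, 0.80 for TM7SF2, 1.67 for MSMO1, 0.38 for NSDHL, 1.25 for HSD17B7, 0.85 for EBP, 0.43 for SC5D and 0.70 for DHCR7. NSDHL and EBP are on this list although neither was called against day 0 under ND-646 or TVB-3166, and their means were lowest under palbociclib, at 28.9 ± 0.852 CPM (SD, n = 3) for NSDHL and 38.6 ± 3.05 CPM for EBP. Groups of 3 libraries were too small to test for outlying libraries.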

How the results depend on the processing

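Over 1863 member values under the alternatives, no call turned its direction, 63 calls were lost and 30 gained, and 47 values that passed in neither fit changed sign. With all 24 libraries in a single fit, 18 calls were lost and 2 gained: under doxorubicin 3 enzymes were higher and 1 lower than on day 0, and against day 7 bleomycin had 0 higher and 1 lower, alisertib 3 higher, doxorubicin 2 higher and 0 lower, and palbociclib 1 higher and 1 lower; the cause was not tested. DESeq2 gained 5 calls and lost none, and called 2 between the untreated groups. RLE factors, a minimum of 10 counts and total counts each left 1 enzyme lower under doxorubicin against day 0. By the rule of 2-fold and raw p, the higher counts were 0 (bleomycin), 3 (alisertib), 1 (doxorubicin) and 0 (palbociclib) against day 0, 4 (TVB-3166) and 0 (bleomycin, alisertib, doxorubicin, palbociclib) against day 7, and 4 in the contrast with the other drugs, and 0 were lower in any. Under ND-646, HSD17B7 passed this rule against day 0 (log2 fold change 1.07) and day 7 (1.05). CYP51A1 (0.997), TM7SF2 (0.92) and SC5D (0.81) fell short of 2-fold under ND-646 against day 7. Under TVB-3166 against day 0, CYP51A1 (0.989) fell short. Leaving out single libraries gave 0 to 1 lower for ND-646 against day 0, 0 to 2 higher for TVB-3166 against ND-646, 2 to 4 higher for bleomycin and 1 to 2 lower for doxorubicin against day 0, and against day 7 2 to 4 higher for doxorubicin and 1 to 3 lower for palbociclib. The highest group mean was under ND-646 or TVB-3166 for 9 of 9 enzymes under RLE and total counts, though CYP51A1 and EBP went from ND-646 to TVB-3166 under total counts (12 of 72 group means moved by more than their SD under total counts), and the median r was 0.83 over 8 group means.

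Of the comparisons where the numbers pair the libraries, the replicate block changed calls only for alisertib against day 7 (7 higher) and changed no other call. Elsewhere the rule for pairing was not met throughout, so the libraries were not taken as paired, though some same-numbered libraries correlated above 0.1. There the block called 2 enzymes between the untreated groups and 9 for TVB-3166 against day 7. Over every comparison the block gained 9 calls and lost none. Total-count scaling shifted the median log2 fold change of all genes by over 0.1 in 8 of 15 comparisons, by -0.22 at the lowest and 0.14 at the highest, and the share of calls that were higher from 50.5% to 39.0% (ND-646), 47.5% to 69.6% (alisertib), 48.9% to 61.0% (doxorubicin), 48.9% to 61.9% (palbociclib) and 66.3% to 87.5% (untreated day 7) against day 0, from 50.2% to 29.4% (ND-646), 49.3% to 38.5% (TVB-3166) and 49.1% to 34.4% (bleomycin) against day 7, from 72.4% to 89.7% between the inhibitors and from 52.1% to 30.0% against the other drugs. HSD17B7 had the fewest counts, 138 to 703 a library. Its coefficient of variation was 58.9% under ND-646 and 45.3% under TVB-3166, against 8.12% to 17.8% in the other groups.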
